A study of Mus musculus with 6 samples.

Results

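Mammalian cells keep a set of genes that low oxygen switches on. The set described here holds 35 mouse genes of this hypoxia response that encode no glycolytic enzyme, glucose transporter or lactate transporter. The list is one of gene symbols and uses no threshold on the values measured here, although it was drawn up with earlier results of these data known. All 35 had a row among the 24445 genes of the count table. RNA sequencing had been done on bone marrow-derived macrophages (BMDMs) treated with interleukin 4 (IL-4), a cytokine that drives macrophages to alternative activation. The AclyM-KO group carried loxP sites around exon 9 of both copies of *Acly* together with a Lyz2-Cre transgene, whose recombinase is made in cells of the myeloid lineage. The Ctrl group were Acly fl/fl littermates, so both groups carried the loxP sites. The floxed mice were C57Bl/6J. Both groups were grown from bone marrow for 7 days in L929-conditioned medium and then received 100 U/mL IL-4 for 24 hours, so every library came from IL-4-treated cells. Age and sex of the mice that gave the marrow are not given in the sources used here. Each group had 3 libraries, with 12151975 to 14739689 counts in Ctrl and 14745614 to 15587283 in AclyM-KO. The study calls its replicates biological in one place and technical replicates of pooled mice in another, so the p-values measure only the spread between these libraries, which may be technical.

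The response is carried by hypoxia-inducible factors (HIFs), each a pair of an oxygen-labile alpha subunit and a stable beta subunit. With oxygen present, prolyl hydroxylases (Egln1 to Egln3) mark the alpha subunit, the VHL ubiquitin ligase binds the mark, and the protein is degraded. When hydroxylation slows, the alpha subunit accumulates and the pair binds short hypoxia response elements, whose core reads A or G followed by CGTG. Besides the genes of sugar breakdown, the targets include mitophagy receptors, angiogenic and vasoactive factors, regulators of lipid droplets and glycogen, enzymes that hydroxylate collagen, oxygen-dependent demethylases and feedback regulators. Macrophages are known to use this programme in wounds, inflamed tissue and tumors.

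Because the genes were chosen as hypoxia-response genes, the letters of the core were looked for in their promoters. Each window ran from 250 bases before to 50 bases after a RefSeq transcript start on the build GRCm38.p6, and 31 of the 35 genes had at least 1 window, 46 in all. The motifs searched were ACGTG and GCGTG on both strands. ACGTG was found once on each strand, overlapping, wherever the palindromic E-box CACGTG occurred. The 4 stretches printed here belong to the 4 genes with the smallest adjusted p-values in the comparison, and each ends before the first annotated exon base of the window. Capitals mark the cores on either strand, and each stretch reads 5′ to 3′ on the strand of its gene.
Ankrd37: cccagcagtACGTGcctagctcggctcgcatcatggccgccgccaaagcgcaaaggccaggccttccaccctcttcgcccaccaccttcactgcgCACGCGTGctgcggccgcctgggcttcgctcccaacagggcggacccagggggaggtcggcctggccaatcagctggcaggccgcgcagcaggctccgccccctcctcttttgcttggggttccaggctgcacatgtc
Bnip3: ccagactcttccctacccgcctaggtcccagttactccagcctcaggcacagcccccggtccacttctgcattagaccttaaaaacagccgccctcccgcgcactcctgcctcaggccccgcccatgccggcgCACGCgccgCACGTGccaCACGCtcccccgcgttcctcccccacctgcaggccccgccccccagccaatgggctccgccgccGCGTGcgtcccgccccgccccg
Narf: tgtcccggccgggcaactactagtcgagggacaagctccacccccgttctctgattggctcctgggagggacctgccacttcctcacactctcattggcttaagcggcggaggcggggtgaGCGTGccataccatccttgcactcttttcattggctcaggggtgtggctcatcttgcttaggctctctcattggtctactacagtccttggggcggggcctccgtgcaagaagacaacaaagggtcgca
Ak4: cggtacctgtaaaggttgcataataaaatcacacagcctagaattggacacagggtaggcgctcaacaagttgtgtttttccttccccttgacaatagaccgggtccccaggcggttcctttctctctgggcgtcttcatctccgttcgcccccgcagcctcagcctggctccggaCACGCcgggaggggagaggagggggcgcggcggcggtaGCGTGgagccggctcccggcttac
The *Ankrd37* stretch is chr8:45999868-46000100 on the minus strand and holds 3 cores, of which 2 overlap as CACGCGTG. The annotated gene extends upstream of it, so the stretch lies before the RefSeq start but within the span of a longer transcript. The *Bnip3* stretch, chr7:138909520-138909756 on the minus strand, holds 5 cores, including an E-box with a core of the other kind on either side of it. On the plus strand, *Narf* (chr11:121236986-121237235) has 1 core and *Ak4* (chr4:101419039-101419276) has 2.

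At least 1 core was present in 37 of the 46 windows of these genes, or 80.4%. The share was 61.6% over the windows of all genes tested and 43.8% over all 32851 promoter windows. For ACGTG alone the shares were 54.3%, 25.7% and 19.6%, and for GCGTG alone they were 67.4%, 50.1% and 32.4%. The windows also differ in base composition, with a median GC content of 64.5% for these genes, 60.7% for the genes tested and 52.7% for all windows, and the part of GC content in these shares was not tested. Inside the set, 88.9% of the 18 windows of genes called lower held a core, as did 75.0% of the 24 windows of genes that were tested and not called. Some windows of the same gene overlap, as those of *Ak4* do, so windows are not independent, and the shares over all genes were counted by window only. Counted by gene, a core was found in all 11 genes called lower and in all 16 genes that had a window and were not called. A match of these letters is a description of the sequence and not of a factor's binding, and presence of a core did not separate the genes called lower from the others.

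**Figure D1:**
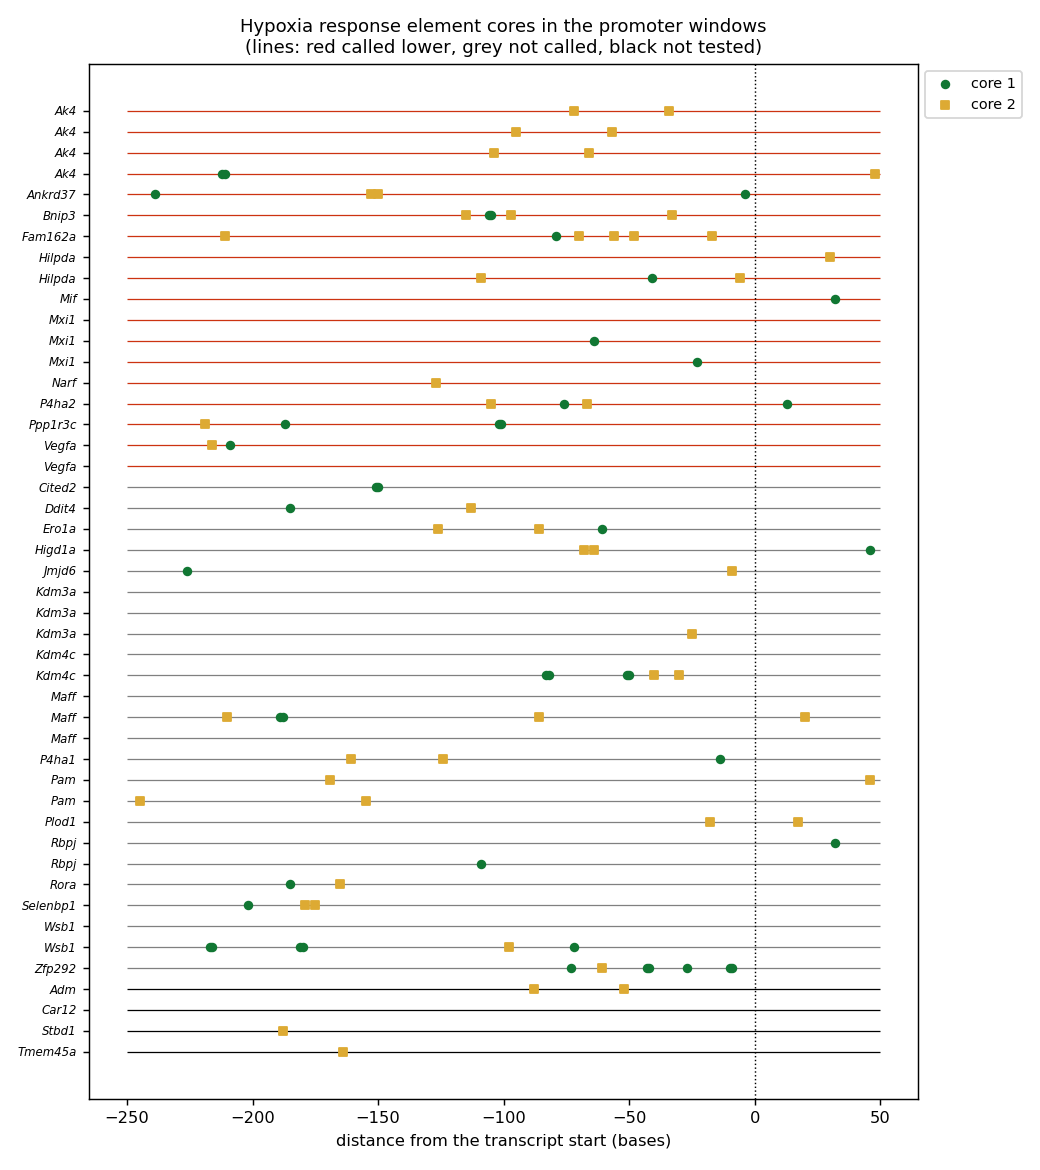
Position of hypoxia response element cores in each promoter window, 1 line per window, with the distance from the transcript start in bases on the horizontal axis. Circles are ACGTG (core 1) and squares GCGTG (core 2) on either strand, and lines are red for genes called lower, grey for genes not called and black for genes not tested. Cores lie in 16 of the 18 red windows and in 18 of the 24 grey ones.

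*Acly* itself was lower in the libraries labelled AclyM-KO. Its counts were 4917, 3925 and 4606 in Ctrl and 2140, 2078 and 1978 in AclyM-KO, a log2 fold change of -1.27 (SE 0.0533, adjusted p = 5.22e-10). Reads from exons outside the deleted one are still counted on *Acly*. The labelled cell type was checked against 8 macrophage markers, which summed to 13399 to 14710 counts per 1000000 counts (CPM) in Ctrl and 11088 to 11539 CPM in AclyM-KO, with *Mertk* (-0.73) and *Lyz2* (-0.67) called lower. By the adjusted p alone 4 were lower and 1, *Adgre1*, was higher (0.33, adjusted p = 2.27e-05), below the fold limit. Without *Lyz2*, the gene whose promoter drives the Cre, the other 7 markers summed to 7274 to 7590 CPM in Ctrl and 6973 to 7339 CPM in AclyM-KO, and the groups overlapped. Neutrophil markers summed to 12.1 to 14.9 CPM in Ctrl and 19.5 to 21.5 CPM in AclyM-KO, with *S100a8* (0.85) and *S100a9* (0.59) called higher among 3 of 8 that could be tested. Lower sums in AclyM-KO were seen for T cell markers (14.5 to 17.9 against 10.2 to 12.5 CPM) and B cell markers (2.54 to 3.11 against 1.51 to 2.19 CPM), while dendritic cell markers reached 9.12 to 11.6 and 8.63 to 9.46 CPM. Erythroid markers stayed at or below 1.02 CPM in every library, with the globin genes *Hba-a1*, *Hba-a2*, *Hbb-bs* and *Hbb-bt* at 0, and fibroblast markers at or below 1.30 CPM, with *Lum* at 0. The part of these shifts in the results was not tested.

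Of the 35 hypoxia-response genes, 31 could be tested, and 11 of these were called lower in AclyM-KO BMDMs. These were the mitochondrial genes *Bnip3* and *Fam162a*, the secreted factors *Vegfa* and *Mif*, the metabolic genes *Hilpda*, *Ak4* and *Ppp1r3c*, the collagen-modifying *P4ha2*, the transcription factor *Mxi1*, and *Ankrd37* and *Narf*. AclyM-KO levels of these 11 genes were 24.1% (*Ankrd37*) to 65.3% (*Narf*) of the Ctrl mean. A gene was called where the adjusted p of edgeR's quasi-likelihood test was under 0.05 and the log2 fold change, AclyM-KO minus Ctrl, was beyond 0.58. By this rule 35.5% of the genes tested were called lower, where 2.57% of all 12023 genes tested were called lower and 5.55% were called in either direction. In bulk RNA, fewer cells that express a gene and less RNA of it in each cell cannot be told apart.

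No hypoxia-response gene was called higher, against 2.98% of all genes tested, and DESeq2 and limma-voom called 0 as well. At an unadjusted p under 0.05, 20 were lower and 1 was higher, where the background was 18.5% lower and 18.2% higher. By the adjusted p alone, with no fold limit, 16 were lower and 1 was higher, where the background was 12.6% lower and 12.4% higher. The log2 fold change was below 0 for 28 of the 31 genes, against 49.7% of all genes tested, and its median was -0.32 where that of all genes tested was 0.00136. In 20 genes every AclyM-KO library lay below every Ctrl library, a pattern seen in 19.8% of all genes tested. The opposite order held for 2 genes, *Cited2* and *Plod2*, where 20.5% of all genes tested had it, and the groups overlapped in the other 9.

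**Figure D2:**
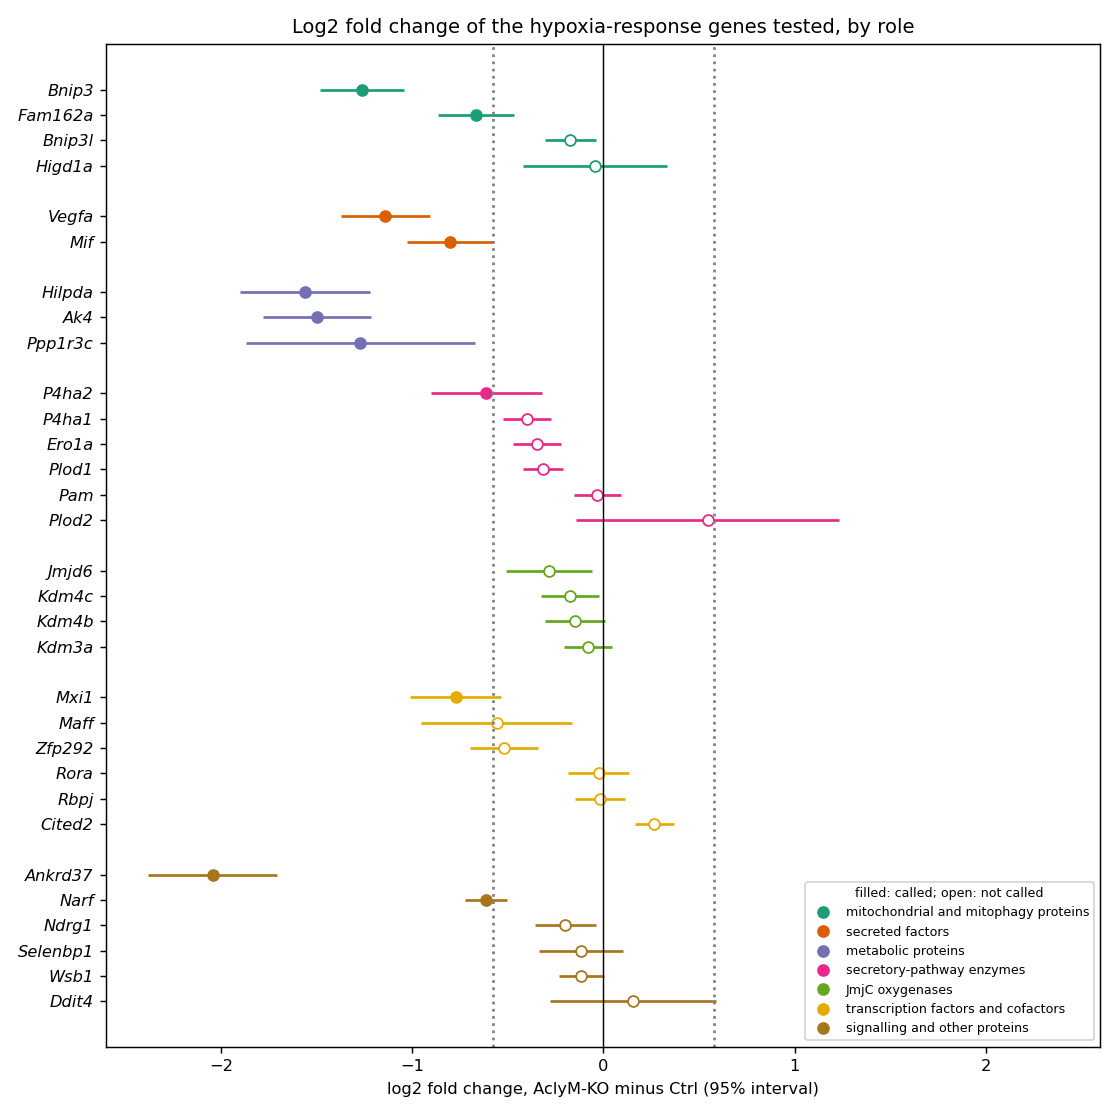
Log2 fold change (AclyM-KO minus Ctrl) of the 31 hypoxia-response genes tested, grouped by role, with 95% intervals. Filled points were called, open points were not, and dotted lines mark the fold limit of 0.58 in either direction. The 11 filled points all lie left of the limit, from -2.04 for *Ankrd37* to -0.61 for *P4ha2* and *Narf*.

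Of the 4 genes grouped here under mitochondrial and mitophagy proteins, 2 were called lower, and the median log2 fold change of the 4 was -0.42. *Ak4*, whose product is also mitochondrial, is counted below with the metabolic genes. *Bnip3* encodes a protein of the outer mitochondrial membrane that acts as a receptor for mitophagy, the removal of mitochondria by autophagy. The gene lies on chromosome 7 from 138890836 to 138909519, minus strand. Its level was 18.9, 21.02 and 19.8 CPM in Ctrl and 8.80, 8.04 and 8.02 CPM in AclyM-KO. All 3 AclyM-KO values lay far below the lowest Ctrl value, and the spread within each group was small. The mean fell from 19.9 ± 1.06 to 8.29 ± 0.445 CPM (SD, n = 3), a log2 fold change of -1.26 (SE 0.103, adjusted p = 4.94e-07 in the edgeR fit). Exons on the opposite strand cover 28.7% of the exonic bases of *Bnip3*, and reads from both strands appear to have been counted together. It also has 4 annotated pseudogenes that align to it over at least 200 bases at 90% identity or more, so a part of its counts is uncertain.

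*Fam162a* encodes a mitochondrial protein tied to cell death under hypoxia and lies on chromosome 16 from 36043761 to 36071594, minus strand. It was at 22.3, 24.9 and 22.7 CPM in Ctrl and at 13.2, 15.0 and 15.6 CPM in AclyM-KO. The groups were well apart, and the log2 fold change was -0.67 (SE 0.0936, adjusted p = 9.58e-05). Here 23.4% of the exonic bases lie under exons of *Wdr5b* on the other strand, whose own log2 fold change was -0.37 (adjusted p = 0.21). *Bnip3l*, the paralog of *Bnip3* that clears mitochondria from maturing red cells, was more abundant at 118, 107 and 131 CPM in Ctrl and 103, 107 and 106 CPM in AclyM-KO. Its AclyM-KO values lay just under the lowest Ctrl value, and the log2 fold change of -0.17 (95% interval -0.31 to -0.038) missed the threshold with an adjusted p of 0.0584. *Higd1a*, which binds and modulates the respiratory chain, overlapped between groups at -0.046 (interval -0.42 to 0.33, adjusted p = 0.879). Opposite-strand exons cover 30.6% of its exonic bases, so a part of its counts is uncertain too. Among other genes not called, the share was 19.25% for *Ndrg1* and 10.31% for *Jmjd6*.

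The unequal change of the mitophagy receptors was tested within libraries, where library scaling cancels. The log2 ratio of *Bnip3* to *Bnip3l* counts was -2.64, -2.35 and -2.72 in Ctrl and -3.54, -3.73 and -3.72 in AclyM-KO. The groups did not overlap, and the ratio was lower in AclyM-KO by a difference of -1.09 on the log2 scale. The exact two-sided permutation test gave p = 0.10, the smallest that 3 against 3 libraries allow, and 0.20 after Benjamini-Hochberg adjustment over the 4 pairs compared. The exact test therefore could not reach the threshold for any pair of paralogs.

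**Figure D3:**
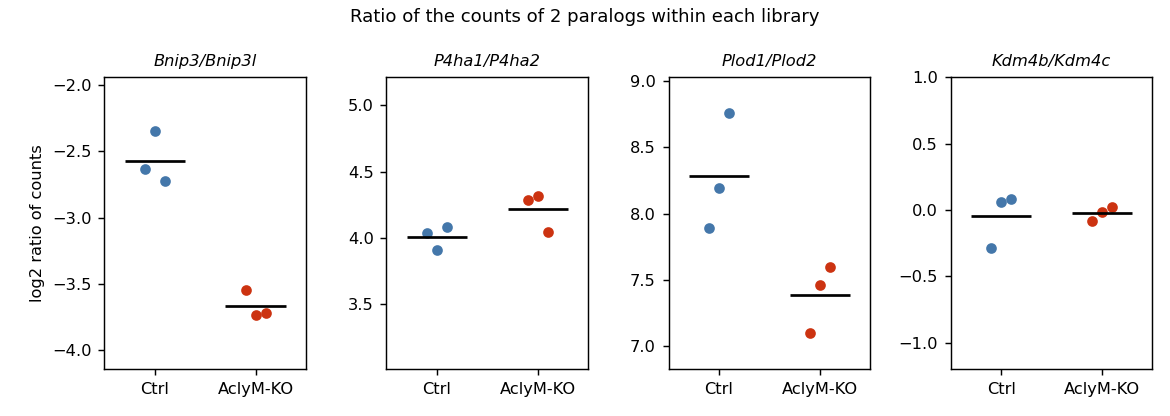
Log2 ratio of the counts of 2 paralogs in each library, for 4 pairs, with points for libraries and bars for group means. All 4 vertical axes span the same range. The 3 AclyM-KO points lie below all Ctrl points for *Bnip3*/*Bnip3l* and *Plod1*/*Plod2*, and the groups overlap for the other 2 pairs.

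Both secreted factors that could be tested were called lower. *Vegfa*, the growth factor that drives angiogenesis, lies on chromosome 17 from 46016993 to 46032369, minus strand. It stood at 95.9, 144 and 119 CPM in Ctrl and at 53.7, 59.5 and 49.0 CPM in AclyM-KO. The Ctrl libraries were widely spread, but the lowest of them was still well above the highest AclyM-KO library. The mean of 120 ± 24.1 CPM in Ctrl went down to 54.1 ± 5.27 CPM in AclyM-KO (SD, n = 3), with a log2 fold change of -1.14 (SE 0.110, adjusted p = 2.46e-06). Per kilobase of transcript, *Vegfa* was at 60.6 CPM in Ctrl, the third highest of these genes after *Plod1* (95.01) and *P4ha1* (62.6). Its 3 shorter RefSeq rows, which hold 73.5% of the counts of the row used, gave a ratio of AclyM-KO to Ctrl means of 0.433 where the row used gave 0.446.

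*Mif* encodes macrophage migration inhibitory factor, a cytokine that cells store and release, and lies on chromosome 10 from 75859353 to 75860240, minus strand. Its levels were 19.1, 17.7 and 18.2 CPM in Ctrl and 9.82, 9.97 and 11.8 CPM in AclyM-KO. There was no overlap, and the log2 fold change was -0.80 (SE 0.105, adjusted p = 5.05e-05). *Mif* has 5 annotated pseudogenes at the same similarity, the most of any gene in the set, so its counts are uncertain in part too. *Adm*, for the vasodilator peptide adrenomedullin, gave 3, 6 and 6 counts in Ctrl against 1, 1 and 5 in AclyM-KO and was too low to be tested.

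All 3 metabolic genes that could be tested were called lower, with a median log2 fold change of -1.499, the lowest of the 7 role groups. *Hilpda* encodes a lipid droplet protein that inhibits the main triglyceride lipase of the cell, and it lies on chromosome 6 from 29272488 to 29275446, plus strand. It was at 17.8, 27.6 and 23.9 CPM in Ctrl and at 7.16, 9.46 and 6.65 CPM in AclyM-KO. The lowest Ctrl library stood clear of every AclyM-KO library. With 23.1 ± 4.91 CPM in Ctrl and 7.76 ± 1.496 CPM in AclyM-KO (SD, n = 3), the log2 fold change was -1.56 (SE 0.159, adjusted p = 4.26e-06).

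*Ak4* encodes an adenylate kinase of the mitochondrial matrix, which moves phosphate between adenine nucleotides, and lies on chromosome 4 from 101419277 to 101466995, plus strand. The Ctrl libraries were at 17.4, 20.9 and 19.0 CPM and the AclyM-KO libraries at 7.78, 7.08 and 5.35 CPM. AclyM-KO levels were 35.2% of the Ctrl mean, and the log2 fold change was -1.499 (SE 0.133, adjusted p = 1.12e-06). *Ppp1r3c*, a subunit that brings protein phosphatase 1 to glycogen and so favours glycogen synthesis, lies on chromosome 19 from 36731731 to 36736653, minus strand. Its counts were low, at 43, 26 and 51 in Ctrl and 19, 17 and 19 in AclyM-KO. It was called at -1.27, with the largest standard error among the 11 called genes (0.281, adjusted p = 0.00379). Too low to be tested were *Car12*, a carbonic anhydrase of the cell surface (0, 1 and 2 counts in Ctrl and 6, 9 and 2 in AclyM-KO), and *Stbd1*, a glycogen-binding protein (3, 7 and 7 in Ctrl and 1, 5 and 7 in AclyM-KO). No fold change is given for genes at such counts.

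**Figure D4:**
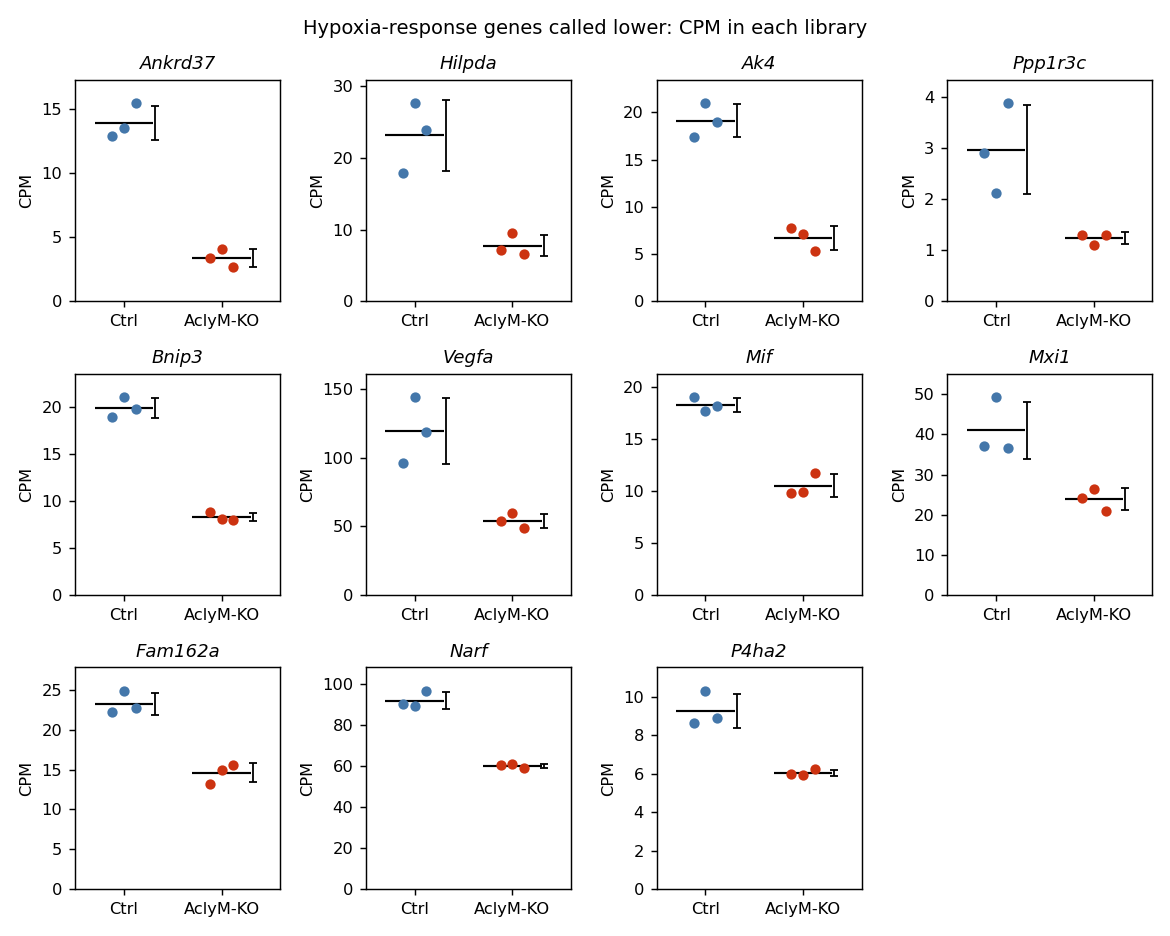
Level of the 11 hypoxia-response genes called lower, in CPM on an axis that starts at 0, with a point for each library, a bar for the group mean and a bracket for 1 SD on either side. In each panel the 3 AclyM-KO points lie below the 3 Ctrl points.

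Among the 6 enzymes that modify proteins in the secretory pathway, 4 fell by the adjusted p and 1 passed the fold limit as well. *P4ha1* and *P4ha2* encode alternative catalytic subunits of collagen prolyl 4-hydroxylase, which stabilises the collagen helix and needs oxygen. *P4ha2*, on chromosome 11 from 54100095 to 54131665, plus strand, was at 8.65, 10.3 and 8.88 CPM in Ctrl and 6.003, 5.92 and 6.24 CPM in AclyM-KO. All AclyM-KO values were below all Ctrl values, and the log2 fold change of -0.61 (SE 0.136, adjusted p = 0.00399) lay just past the limit. This call rested on Ctrl replicate 2, since the log2 fold change was -0.54 without that library. The far more abundant *P4ha1*, at 142, 156 and 151 CPM in Ctrl and 118, 118 and 103 CPM in AclyM-KO, fell by less than the limit (-0.40, adjusted p = 0.000164). The log2 ratio of *P4ha1* to *P4ha2* ranged from 3.91 to 4.08 in Ctrl and from 4.04 to 4.31 in AclyM-KO, so the groups overlapped (difference 0.21, exact permutation p = 0.20 and 0.267 adjusted).

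The lysyl hydroxylases, which prepare collagen for cross-linking, differed widely in level. *Plod1* was at 313, 299 and 313 CPM in Ctrl and 238, 244 and 259 CPM in AclyM-KO and fell by 0.32 on the log2 scale (adjusted p = 0.000223). *Plod2* was rare, with 19, 12 and 9 counts in Ctrl against 25, 21 and 19 in AclyM-KO. With so few counts its log2 fold change of 0.54 had an interval from -0.14 to 1.23 (adjusted p = 0.241). The log2 ratio of *Plod1* to *Plod2* did not overlap between groups, at 7.89, 8.19 and 8.76 in Ctrl and 7.10, 7.46 and 7.60 in AclyM-KO (difference -0.89, exact permutation p = 0.10 and 0.20 adjusted). *Ero1a*, the oxidase that feeds disulfide bonds into the endoplasmic reticulum, fell by 0.35 (adjusted p = 0.000475), from 83.1, 95.9 and 87.9 CPM to 71.0, 71.1 and 67.4 CPM. *Pam*, a peptide-amidating enzyme, overlapped between groups at -0.032 (interval -0.15 to 0.090, adjusted p = 0.731).

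The 4 JmjC oxygenases, which use oxygen and 2-oxoglutarate to demethylate histones or hydroxylate proteins, had log2 fold changes between -0.28 and -0.080. None of them was called, and by the adjusted p alone 0 were lower and 0 higher, although 2 had an unadjusted p under 0.05 in the edgeR fit (DESeq2 and limma-voom also called 0). Over all genes tested 5.55% were called, 12.6% were lower by the adjusted p and 18.5% were lower unadjusted. With only 4 genes, counts of 0 are therefore not read as a trait of the group. The histone demethylase *Kdm3a* lay at 72.5, 85.0 and 77.4 CPM in Ctrl and at 73.8, 75.4 and 72.6 CPM in AclyM-KO. These libraries overlapped, and the interval of the log2 fold change ran from -0.21 to 0.046 around -0.080. The other three were at -0.15 (*Kdm4b*, adjusted p = 0.153), -0.17 (*Kdm4c*, adjusted p = 0.0861) and -0.28 (*Jmjd6*, adjusted p = 0.0598). For *Jmjd6* the interval reached from -0.51 to -0.061, and its levels were 17.2, 18.3 and 20.9 CPM in Ctrl and 13.7, 16.3 and 16.3 CPM in AclyM-KO. The log2 ratio of *Kdm4b* to *Kdm4c* differed by 0.019 between groups (exact permutation p = 1).

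Of the 6 transcription factors and cofactors, 3 fell and 1 rose by the adjusted p. *Mxi1*, which pairs with MAX and opposes MYC, was the one called, on chromosome 19 from 53310518 to 53375810, plus strand. Its levels were 37.1, 49.2 and 36.7 CPM in Ctrl and 24.2, 26.4 and 20.97 CPM in AclyM-KO. Ctrl replicate 2 stood above the other Ctrl libraries, yet every AclyM-KO library was below the lowest of them (log2 fold change -0.77, SE 0.111, adjusted p = 0.00012). *Zfp292*, a zinc finger protein, fell from 43.8, 53.4 and 48.0 CPM to 34.2, 36.5 and 30.2 CPM (-0.52, adjusted p = 0.00032). *Maff*, a small MAF factor, fell from 5.34, 6.46 and 4.63 CPM to 3.34, 4.18 and 3.56 CPM (-0.56, adjusted p = 0.0385). Both fell short of the limit of 0.58 by little, while *P4ha2* and *Narf* at -0.61 passed it by as little.

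*Cited2* was the single gene of the set that rose by the adjusted p. It encodes a cofactor that competes with HIF alpha subunits for a shared coactivator and so restrains the response. Its levels were 95.9, 91.0 and 94.3 CPM in Ctrl and 111, 113 and 115 CPM in AclyM-KO. The groups were tight and did not overlap, and the log2 fold change was 0.27 (SE 0.0486, adjusted p = 0.000899), below the fold limit. *Rora*, a nuclear receptor, and *Rbpj*, the DNA-binding partner of Notch, overlapped between groups at -0.025 (interval -0.19 to 0.13) and -0.016 (interval -0.15 to 0.11).

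In the last group, of signalling and other proteins, *Ankrd37* was called with the lowest log2 fold change of all 31 genes. It encodes a small ankyrin-repeat protein and lies on chromosome 8 from 45996902 to 46005707, minus strand. Its counts were 190, 165 and 203 in Ctrl against 49, 63 and 39 in AclyM-KO, or 12.8, 13.5 and 15.4 CPM against 3.34, 4.05 and 2.67 CPM. Even the highest AclyM-KO library was far under the lowest Ctrl library. The mean fell from 13.9 ± 1.33 to 3.36 ± 0.690 CPM (SD, n = 3), a log2 fold change of -2.04 (SE 0.159, adjusted p = 2.93e-07), and *Ankrd37* ranked 48 by p among all genes tested. Opposite-strand exons of *Lrp2bp* and *Ufsp2* cover 26.2% of its exonic bases. *Ufsp2* had a log2 fold change of -0.065 (adjusted p = 0.462), and *Lrp2bp* had 1 to 9 counts in every library.

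*Narf* encodes a nuclear protein that binds prelamin A and lies on chromosome 11 from 121237253 to 121255856, plus strand. It was at 90.4, 89.2 and 96.7 CPM in Ctrl and 60.6, 60.9 and 58.9 CPM in AclyM-KO. The libraries of each group lay close together, and the log2 fold change was -0.61 (SE 0.0526, adjusted p = 7.61e-07). *Ndrg1*, a stress-induced protein of vesicle trafficking, overlapped between groups, with 64.5, 78.4 and 80.4 CPM in Ctrl and 63.8, 68.9 and 61.4 CPM in AclyM-KO (-0.20, interval -0.36 to -0.040, adjusted p = 0.0645). *Ddit4*, which restrains the growth kinase complex mTORC1 under stress, was at 3.99, 7.36 and 7.74 CPM in Ctrl and 7.16, 7.66 and 6.17 CPM in AclyM-KO. Ctrl replicate 1 was the lowest of the 6 libraries, and the log2 fold change of 0.15 had an interval from -0.28 to 0.59. *Wsb1*, a substrate adaptor of a ubiquitin ligase, and *Selenbp1*, a methanethiol oxidase, were both at -0.12 (adjusted p = 0.14 and 0.437). *Tmem45a* had 1 count in all 6 libraries together and was not tested.

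In each library the 31 genes were also summarised by 1 value. The median over them of the log2 level relative to the Ctrl mean was -0.072, 0.076 and 0.0093 in Ctrl, against -0.34, -0.32 and -0.27 in AclyM-KO. Over all genes tested no library's median was above 0.0032. Within Ctrl, replicate 1 was the lowest library for 7 of the 11 called genes and for 12 of the 20 that were tested and not called. Replicate 2 was the highest for 7 of the 11 and for 8 of the 20, and replicate 3 for 3 and 8. Within AclyM-KO, replicate 3 was the lowest for 7 of the 11 called genes and for 11 of the 20 that were tested and not called.

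The genes that set oxygen sensing were looked at beside the set. Of 10 HIF subunits and sensors, 9 were tested, 1 was called lower and 1 higher, 4 were lower and 2 higher by the adjusted p, and their median log2 fold change was -0.047. Over all genes tested, 2.57% were called lower and 2.98% higher, and 12.6% were lower and 12.4% higher by the adjusted p. *Egln3*, a prolyl hydroxylase that HIF itself induces, was counted 83, 80 and 60 times in Ctrl against 7, 15 and 7 times in AclyM-KO (-3.09, adjusted p = 1.66e-06). *Epas1*, which encodes the alpha subunit of HIF-2, was higher at 48.0 ± 3.58 CPM against 29.1 ± 0.348 CPM in Ctrl (SD, n = 3), a log2 fold change of 0.72 (adjusted p = 2.98e-06). The 20 genes listed as glycolytic and lactate-handling HIF targets, which include glycogen synthase, were all tested. All 20 fell by the adjusted p, with 12 called lower, 0 called higher and a median of -0.70. The largest shifts among them were those of *Slc16a3* (-1.39), the lactate exporter, *Gys1* (-1.25), glycogen synthase, and *Hk2* (-1.02), a hexokinase. *Gapdh*, also called lower, was counted only 64, 82 and 89 times in Ctrl and 44, 56 and 59 times in AclyM-KO. The cause of this low level was not tested. Of the hypoxia-response genes outside glycolysis, 14 of 31 did not pass the adjusted p, and the difference between these lists was not tested.

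Genes of processes that single members touch were counted as well. The background over all genes tested was 5.55% called, with 12.6% lower and 12.4% higher by the adjusted p. At an unadjusted p under 0.05 it was 18.5% lower and 18.2% higher. In lists this short, counts of 0 called are therefore not read as a trait of the list. For the integrated stress response, which shares *Ddit4* as a target, 15 genes were tested, of which 1 was lower and 8 were higher by the adjusted p. Their median was 0.28, and *Trib3*, a pseudokinase induced by ATF4, was the one called, at 1.31 (adjusted p = 1.33e-06). In mTORC1 and AMPK feedback, 0 of 11 genes were called by edgeR, DESeq2 or limma-voom, 3 were higher by the adjusted p, and 2 were lower and 3 higher at an unadjusted p under 0.05 (median 0.045). Autophagy receptors and mitophagy genes other than *Bnip3* and *Bnip3l* had 0 of 13 called by the same 3 tools, with 1 lower and 3 higher by the adjusted p and 2 lower and 3 higher unadjusted (median -0.031). Lipid droplet coat proteins and lipases were listed as context for *Hilpda*. Of these, 0 of 6 were called by the same 3 tools, with 3 lower and 2 higher by the adjusted p. Unadjusted, 3 were lower and 3 higher (median -0.047).

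**Figure D5:**
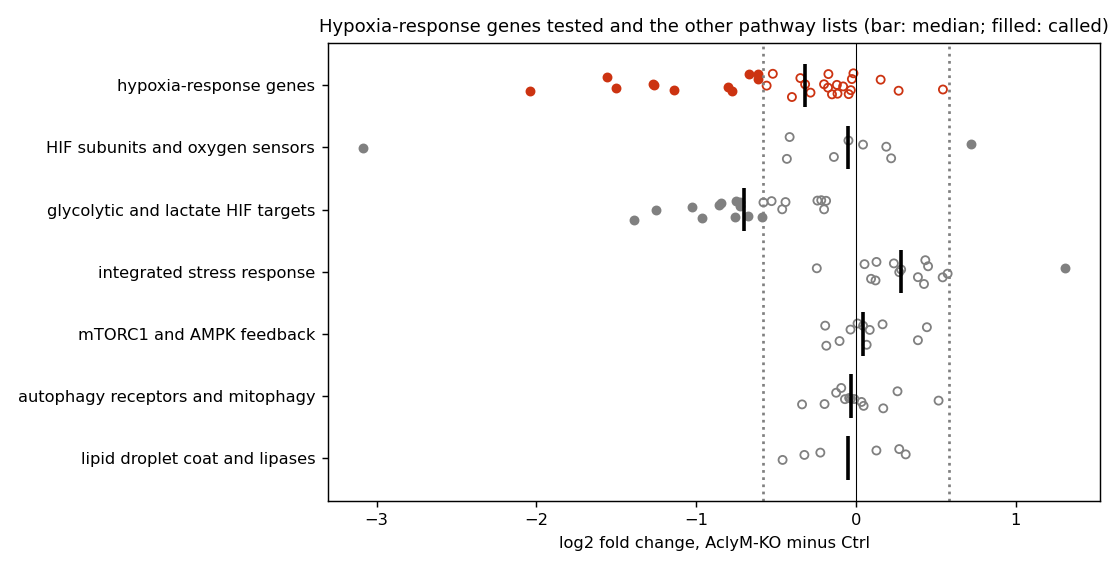
Log2 fold change (AclyM-KO minus Ctrl) of each gene tested, by list, with the hypoxia-response genes in red. Filled points were called, bars are medians, and dotted lines mark the fold limit of 0.58. The medians are -0.32 for the hypoxia-response genes, -0.70 for the glycolytic and lactate targets and 0.28 for the integrated stress response.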

How the data were processed

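Libraries made with the KAPA HyperPrep mRNA kit from total RNA of BMDMs were used, 3 of AclyM-KO and 3 of Ctrl. The authors aligned reads to mm10 and deposited read counts for each RefSeq transcript, unnormalized. The submitters' processing notes list CASAVA 1.8.2 and STAR 2.5.2b, and the program that counted reads is not given in the sources used here. Of 35745 rows, 35435 were paired with genes by the RefSeq gene table of NCBI (GRCm38.p6) and 193 by GENCODE M21. The other 117 rows (0.370% to 1.38% of counts) stayed out of library sizes and tests. The row with the highest total was kept for each gene. Of the 35 genes (Ero1l is listed as *Ero1a*), 14 had several rows, which for 8 genes differed in counts. The study describes its libraries as strand-specific. *Xist* and *Tsix*, which lie on opposite strands, each had 7864, 9887 and 7261 counts in Ctrl. Reads of both strands were therefore taken to have been counted together. Gene positions and exons are those of GENCODE M21 (GRCm38).

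The quasi-likelihood test of edgeR 4.0.16 (R 4.3.3) compared the genotypes on these counts after filterByExpr and TMM scaling, with no other term in the model (glmQLFit, glmQLFTest). P-values were adjusted by Benjamini-Hochberg over all 12023 genes tested. All log2 fold changes, their standard errors, 95% intervals and adjusted p-values come from this fit, in which the common coefficient of biological variation came to 0.0588. For CPM, library sizes were scaled by TMM. Paralog ratios had 0.5 added to each count and were tested with exact two-sided permutation tests in scipy 1.17.1. Pseudogene transcripts were aligned with blastn 2.17.0. Promoter sequences are RefSeq's. No pair of libraries agreed within sampling noise (chi-square per gene 2.31 to 7.46). Alternatives were DESeq2 1.42.0, limma-voom (limma 3.58.1), other scalings, filters and fold limits, the mean over a gene's rows, counts thinned to the smallest library, a replicate term and leaving out each library.

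The sums without *Lyz2* were added after the values were seen. The genes and lists were chosen with earlier results of these data known. The genes named are *Acly*, all 35 hypoxia-response genes, up to 3 called genes in each direction with the largest change in each pathway list, and marker genes that were called or at 0. *Adgre1*, *Gapdh* and *Hif1a* were named after their values were seen. Genes on the opposite strand were named after their overlap was seen. On simulated data with 12023 genes for the comparison of AclyM-KO with Ctrl, 93% of 100 genes changed by 1 on the log2 scale were recovered, as were 98% of 100 changed by 2, and 17 unchanged genes passed the adjusted p (8.17% of the calls). BMDMs without IL-4 and tumors were not analysed here. The result for a single marker gene is not reported here.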

Additional observations from a re-analysis of the deposited data

How the results depend on the processing

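Of the 11 genes called lower, 10 were called in all 16 alternative fits, while *P4ha2* was lost without Ctrl replicate 2 (-0.54). Testing against the fold limit itself (glmTreat) left 5 called lower (*Ankrd37*, *Ak4*, *Bnip3*, *Hilpda* and *Vegfa*), and a limit of 1 on the log2 scale left 6. Leaving out each library in turn gave 10 to 13 called lower and 0 higher, and the stress response list then had 1 to 3 called higher. The medians of all genes were between -0.018 and 0.0060 under the 4 scalings, with 28 hypoxia-response genes below 0 in each.

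Among single genes, directions turned only for *Ddit4*, *Rora*, *Rbpj* and *Higd1a*. Their log2 fold changes in the main fit lay between -0.046 (*Higd1a*) and 0.15 (*Ddit4*). Over fits that each left out 1 library, the log2 fold change ran from -0.11 to 0.32 for *Ddit4*, -0.067 to 0.047 for *Rora*, -0.074 to 0.029 for *Rbpj* and -0.17 to 0.063 for *Higd1a*. The turns were *Ddit4* without Ctrl replicate 1 (-0.11), *Rora* without Ctrl replicate 2 (0.0081) or AclyM-KO replicate 3 (0.047), *Rbpj* without the same libraries (0.028 and 0.029), and *Higd1a* without Ctrl replicate 3 (0.025) or AclyM-KO replicate 1 (0.063). The log2 ratio of *Kdm4b* to *Kdm4c* ranged from -0.10 to 0.085 and turned without Ctrl replicate 1 (-0.10) or AclyM-KO replicate 3 (-0.0042). *Maff* missed the adjusted p with DESeq2 (0.0713) and when Ctrl replicate 1 or 2 or AclyM-KO replicate 1 or 3 was left out. In the other direction, *Jmjd6* passed it in 4 alternatives (0.0324 to 0.0473), *Ndrg1* in 4 (0.00296 to 0.0483), *Bnip3l* in 3 (0.00157 to 0.0386) and *Kdm4c* in 1 (0.0498). The causes were not tested.

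Libraries of the same number did not deviate together (correlations -0.065, 0.050 and -0.031), so the numbers are not taken as a pairing. With the replicate block 11 genes of the set were again called lower and 0 higher, and *Ndrg1* was among the genes that passed the adjusted p (0.0483). At this depth 4 of the 35 genes had too few counts to be compared.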
